A study of Mus musculus with 20 samples.

Results

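The cytosolic ribosomal protein genes were taken as the rows of both count tables whose symbol begins with Rps or Rpl followed by a digit, together with Rpsa, Rplp0, Rplp1 and Rplp2, without pseudogenes named -ps and without the Rps6k and Rps19bp genes. The rule found the same 93 of 55486 genes in each table, 38 named for the small subunit and 55 for the large subunit. Of these, 86 are protein-coding and 7 have a pseudogene biotype in the tables. RNA had been sequenced from bone marrow and kidney of C57BL/6 mice of both sexes, 10 weeks old at the start, with 5 control and 5 oxaliplatin-treated libraries in each tissue and 20 in all. Oxaliplatin, a platinum drug that crosslinks DNA, was injected intraperitoneally at a weekly dose of 10 mg/kg over 8 weeks, whereas control mice received the 5% dextrose vehicle. Marrow was spun out of tibia and femur 6 days after the final dose, and no sorting of cells is described. The labels do not give the sex of single mice. Total counts lay between 30660153 and 41140527 in bone marrow and between 24393007 and 30925430 in kidney libraries. Levels are given as CPM, the usual depth-scaled count, on library sizes scaled by TMM. Calls rest on the quasi-likelihood test of edgeR, two-sided, with p-values adjusted by Benjamini-Hochberg over all genes tested and a threshold of 0.05. Hemoglobin and other erythroid genes were abundant in marrow and tubule genes in kidney. The summed CPM of 14 erythroid genes averaged 43904 in control marrow and 479 in control kidney, and that of 7 proximal tubule genes was 17220.1 in control kidney.

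A ribosome joins a small subunit, which reads the messenger RNA, to a large subunit, which forms the peptide bonds, and each subunit is built on ribosomal RNA in the nucleolus from one copy of most of these proteins. Messenger RNAs of ribosomal proteins and of several translation factors begin with a run of pyrimidines, the 5′ terminal oligopyrimidine (TOP) motif, through which the kinase mTORC1 and the protein Larp1 control their translation and stability. Blood formation depends strongly on ribosome supply: loss of one copy of genes such as Rps19, Rpl5 or Rpl11 causes Diamond-Blackfan anemia, and loss of one copy of RPS14 contributes to the anemia of the 5q- syndrome. Free Rpl5 and Rpl11, held in a particle with 5S ribosomal RNA, bind Mdm2 and stabilise p53. Several members are copies of a core protein, among them Rpl3l of striated muscle and Rpl39l of testis, which are tissue-restricted, and the broadly expressed Rps27l, which p53 induces.

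For description, 77 protein-coding members were set apart as core genes, leaving out the listed paralogs, Rps23rg1 and the members with a pseudogene biotype; 31 belong to the small and 46 to the large subunit. RefSeq promoters on GRCm38.p6 matched 68 of the 93 members and 57 of the 77 core genes, each reaching from 250 bases before the annotated start base to 49 after it, and the entry nearest the GENCODE start was used for the 10 members with several. A pyrimidine run of at least 8 bases lay over the annotated start in 15 of 57 core promoters (26.3%), against 1268 of 32851 promoters of all genes (3.86%). Annotated starts can lie a few bases from the true ones, so a run that begins beside the annotated base was not counted. Most core promoters thus lacked a run over the start base, among them those of Rpl27, Rpl9, Rpl10 and Rpl10a. Of the other members' promoters, 2 of 11 had one (18.2%). Within 20 bases of the start, a run of at least 8 lay in 27 of 57 core promoters (47.4%) against 5404 of 32851 of all promoters (16.45%). The starts below are those of 3 core genes chosen because they have a run and of the called paralogs with a promoter entry, each with 20 bases before the start base and 10 from it on; capitals mark an unbroken run of C and T of any length over the start base.
Rps27, chr3:90213639-90213668, minus strand: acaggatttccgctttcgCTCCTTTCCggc
Rps9, chr7:3704021-3704050, plus strand: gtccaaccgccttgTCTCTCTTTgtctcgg
Rps6, chr4:86857358-86857387, minus strand: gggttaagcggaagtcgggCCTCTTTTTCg
Rps27l, chr9:66946066-66946095, plus strand: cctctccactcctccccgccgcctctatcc
Rpl22l1, chr3:28805488-28805517, plus strand: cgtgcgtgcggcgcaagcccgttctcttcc
Rpl7l1, chr17:46782647-46782676, minus strand: gcccggtgaggctgcgcaagCgcagtagct
Rpl39l, chr16:10170208-10170237, plus strand: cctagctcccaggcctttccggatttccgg
Rpl3l, chr17:24727806-24727835, plus strand: cagctgagtgttctagctctgtcatttgac
The run over the start was 9 bases long in Rps27 and Rps9 and 10 in Rps6, while the start base of the paralogs was a purine except in Rpl7l1, where it was a lone c. In Rpl22l1 a pyrimidine run of 10 bases began 1 base after the annotated start.

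Among 5 motifs searched on both strands of the 300-base windows, CCGGAAG, the core of ETS-family sites, was the one with the largest difference between core and all promoters. It was present in 23 of 57 core promoters (40.4%) and in 2910 of 32851 of all promoters (8.86%). GGGCGG, the core of an Sp1 site, lay in 34 of 57 (59.6%) against 35.7% of all promoters. AAGATGGC, part of a YY1 site, was found in 4 of 57 (7.02%) against 2.75%, CACGTG, an E-box, in 5 of 57 (8.77%) against 7.15%, and TATAAA in 5 of 57 (8.77%) against 13.6%. The end of a CCGGAAG match can share bases with an AAGATGGC match, and both were then counted. The following windows show CCGGAAG in capitals with 10 bases on each side, on the strand of the gene, in the small subunit genes Rps21 and Rps25 and in the paralog Rpl39l.
Rps21, chr2:180257281-180257307, plus strand: tttctttgcaCCGGAAGcggaagttaa
Rps25, chr9:44407631-44407657, plus strand: acccattgccCCGGAAGtactctctcg
Rpl39l, chr16:10170126-10170152, plus strand: tttgccgtacCCGGAAGcgctggaagc
Core genes with the motif had a median log2 fold change of 0.03 in marrow and -0.06 in kidney after oxaliplatin, and those without it 0.00 and -0.03. These matches describe the sequence and were not tested as binding sites.

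In control bone marrow the 93 genes together took 2.43 ± 0.194% of all counts, and in control kidney 1.47 ± 0.0698% (SD, n = 5 each). Marrow control libraries 1 to 5 held 2.41, 2.52, 2.33, 2.7 and 2.19%, and oxaliplatin libraries 1 to 5 held 2.33, 2.72, 3.69, 2.79 and 2.33%. Library 3 of the oxaliplatin group lay above all the other marrow libraries, and of the remaining 4, libraries 1 and 5 lay within the range of the controls and libraries 2 and 4 slightly above it. In kidney the shares were 1.43, 1.37, 1.55, 1.51 and 1.5% in controls and 1.82, 1.5, 1.57, 1.42 and 1.5% after oxaliplatin, with library 1 of the treated group highest. The groups overlapped in both tissues, so the summed share of 2.77 ± 0.556% in treated marrow and 1.56 ± 0.152% in treated kidney (SD, n = 5 each) differed from controls by less than the spread of the treated libraries. Per TMM-scaled library size, the scale of the CPM values, the difference between treated and control means was 0.0697 points in marrow in place of 0.344, and in kidney it turned from 0.0901 to -0.0487. Without oxaliplatin library 3 the treated marrow mean was 2.54%.

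Measured per length of the principal transcript, core genes of control marrow had a median level of 356 CPM per kb, and 61 of 77 lay within 2-fold of it. Rps12 was highest at 1230.2 CPM per kb, followed by Rplp1 (981) and Rplp0 (888), both proteins of the stalk that recruits elongation factors. In control kidney the median was 203 CPM per kb with 54 of 77 core genes within 2-fold, and Rplp1 was highest (1032 CPM per kb). Rpl24, Rps10 and Rpl13a were the lowest core genes in both tissues, at 1.12, 7.42 and 21.4 CPM per kb in control marrow. Exons of another annotated gene on the same strand cover 47.0%, 20.6% and 35.4% of the exon bases of these genes, the 3 largest shares among core genes, and reads that fit more than 1 gene were not counted. Their levels are therefore uncertain, and the part of the overlap in them was not tested.

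The levels of core genes varied together from library to library. Among control marrow libraries, 74 of 77 core genes were highest in library 4 and 72 were lowest in library 5. In treated marrow 74 of 77 were highest in library 3, where the median core gene lay 0.43 above its control mean on the log2 scale. The other 4 treated marrow libraries had medians of -0.16, 0.02, -0.01 and -0.20. In kidney, treated library 1 was highest for 72 of 77 core genes, with a median of 0.17, and treated library 4 was lowest for 55, with a median of -0.23. The median coefficient of variation of a core gene was 12.0% in control and 19.0% in treated marrow, against 7.93% and 15.2% over the 6322 abundant marrow genes, those whose log2 CPM averaged 5 or more. Treated marrow library 3 also differed elsewhere: it had the highest summed CPM of 8 skeletal muscle genes (853) and the lowest of 13 neutrophil genes (11367) among treated libraries. Its sums of 10 cycling-cell genes (3718) and 7 megakaryocyte genes (4369) were the highest of that group, and that of 9 macrophage genes (1494) the lowest. Its share of counts on the mitochondrial genome, 0.171%, was the lowest of all marrow libraries. The part of these differences in its ribosomal protein level was not tested.

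**Figure D1:**
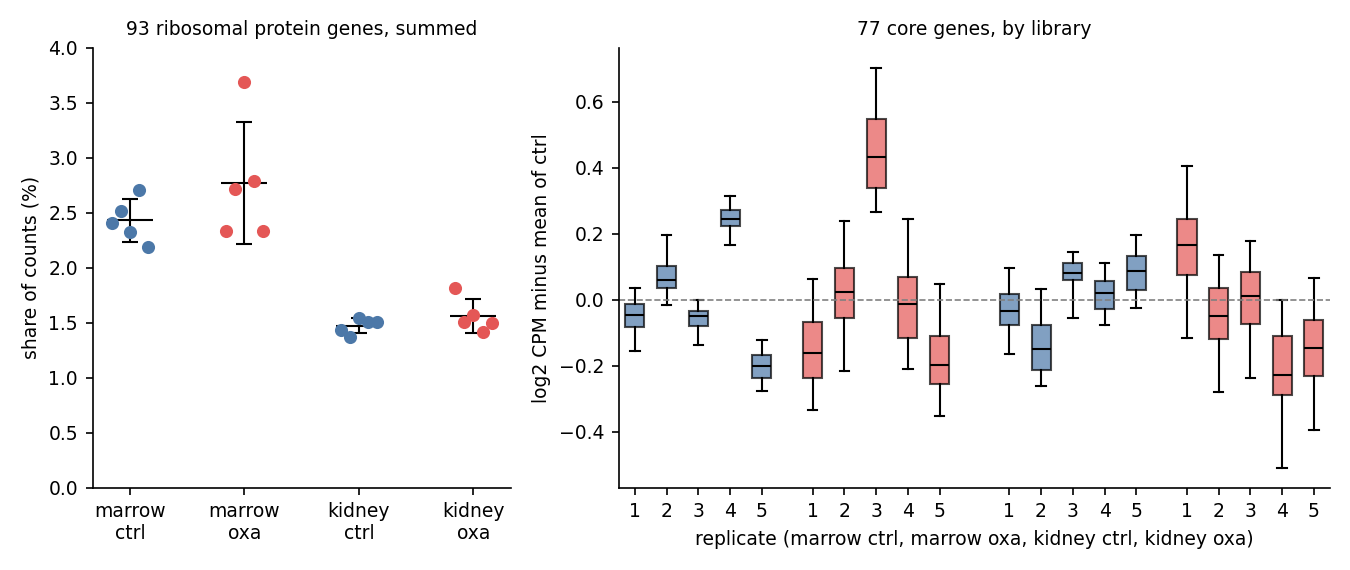
Left, share of all counts (%) on the 93 ribosomal protein genes in each of 20 libraries, with the mean and SD of 5 as black lines. Right, log2 CPM of the 77 core genes minus their mean in the controls of the same tissue, as boxes (quartiles, median) with whiskers from the 5th to the 95th percentile, controls blue and oxaliplatin red; treated marrow library 3 stands above all others with a share of 3.69%.

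In bone marrow, core ribosomal protein transcripts changed little relative to other transcripts after oxaliplatin. Among the listed paralogs 3 of 8 tested were higher (37.5%), beside 33.1% of all genes called in either direction and 16.3% called higher. Core genes and paralogs were not tested against each other. Of 90 members with enough counts to be tested, 4 were higher (Rpl39l, Rps4l, Rps27l and Rpl27) and 0 were lower, against 33.1% of the 22363 genes tested called in either direction, 16.3% higher and 16.8% lower. Rpl39l and Rps4l alone were called beyond 1.5-fold, against 23.3% of all genes, and they were also the only members whose groups did not overlap, against 24.9% of all genes (11.4% higher and 13.5% lower). At an unadjusted p under 0.05 in edgeR 6 members passed, adding Rpl7l1 and Rps10, beside 9487 of the 22363 genes. The median log2 fold change was 0.05 over members and -0.04 over all genes. Among the 77 core genes 1 was called, beside 44.9% of abundant genes, the highest fitted value was 0.43 (Rps10), and the 95% interval lay inside a 1.5-fold change either way for 72 of them. The same held for 26.8% of all genes tested and for 54.3% of the 6322 abundant ones. Without treated library 3, 2 members were higher (Rpl39l and Rps4l), 3 were lower, Rps12 and Rps26 among them, and the median was -0.08. With library size alone as the scale, 11 members were higher, while the median of all genes moved to 0.11 and 5372 of all genes were called higher and 2709 lower, in place of 3650 and 3763. Relative to all genes the members' median was 0.08 with TMM, 0.09 with library size and 0.20 with a covariate of Y-linked expression for the unlabelled sex of the mice, where the members' own median was 0.14. It was -0.05 without treated library 3 and between 0.03 and 0.17 without any other single library. In whole tissue, fewer cells of a type and less RNA per cell cannot be told apart.

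**Figure D2:**
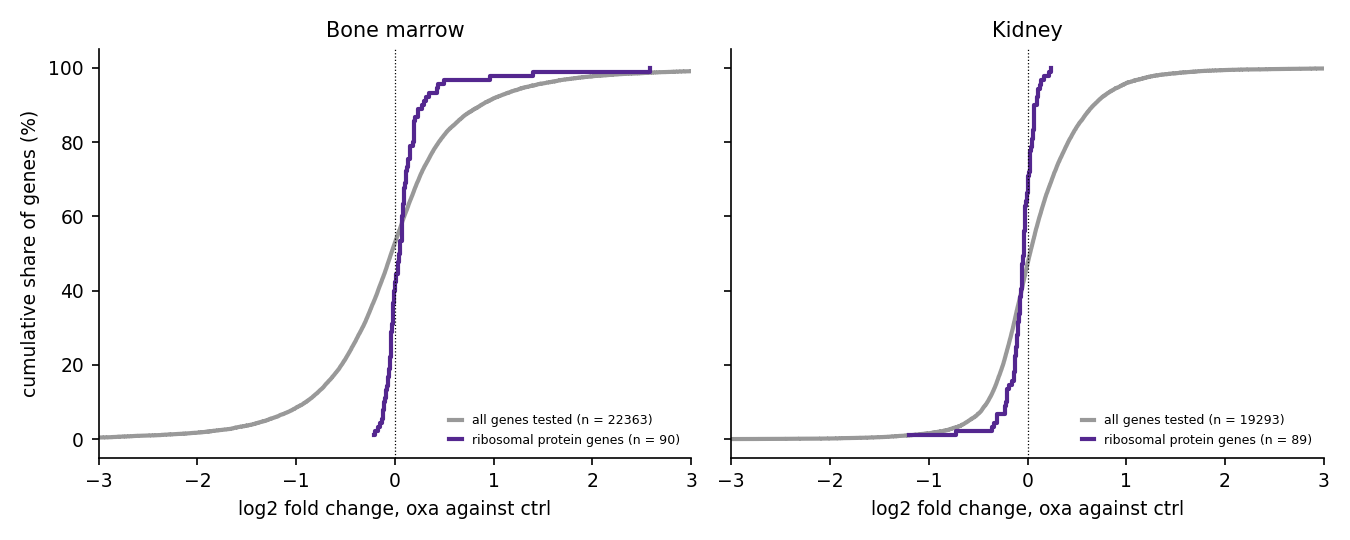
Cumulative share of genes (%) at or below each log2 fold change of oxaliplatin against control, for the ribosomal protein genes (purple) and all genes tested (grey) in bone marrow and kidney; the axis is limited to changes between -3 and 3. The purple curves are steeper, with medians of 0.05 in marrow and -0.04 in kidney.

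Rps4l (ENSMUSG00000063171, chromosome 6 from 148354656 to 148355598), a retrotransposed copy of the small subunit gene Rps4x that the tables class as a transcribed processed pseudogene, rose in marrow. Control marrow libraries held 7.98, 3.64, 5.89, 7.13 and 6.04 CPM and treated libraries 14.3, 16.5, 19.1, 15.3 and 15.7 CPM. Every treated library was above every control, a pattern that 11.4% of all marrow genes tested showed. The log2 fold change was 1.40 (standard error 0.19, 95% interval 1.00 to 1.80, edgeR adjusted p = 7.67e-05), and it remained called with each library left out in turn. Its parent Rps4x stood at 461 ± 63.8 and 457 ± 90.4 CPM in the 2 groups (log2 fold change -0.01, adjusted p = 0.959). Because the copies resemble each other, reads of one could be counted for the other, and the level of Rps4l is uncertain to that extent.

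Rpl39l (ENSMUSG00000039209, chromosome 16 from 10170226 to 10174911), a copy of the large subunit protein Rpl39 known from testis, showed the largest fold change among members. Its counts were 13, 17, 2, 26 and 9 in control marrow and 95, 30, 160, 172 and 35 in treated marrow, which corresponds to 0.411, 0.495, 0.0630, 0.741 and 0.292 and to 2.74, 0.940, 3.73, 3.83 and 0.943 CPM. All 5 treated libraries were above the controls, although control library 3 held fewer than the 3 counts taken as a floor. The log2 fold change was 2.59 (standard error 0.55, 95% interval 1.39 to 3.78, edgeR adjusted p = 0.00281). Rpl39 itself was measured at 96.6 ± 16.9 CPM in controls and 104 ± 20.8 CPM after oxaliplatin (log2 fold change 0.11, adjusted p = 0.612). In kidney Rpl39l was listed at 0 counts in all 10 libraries, which at 3 counts as the limit allows up to 0.130 CPM in the shallowest library.

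Rps27l (ENSMUSG00000036781, chromosome 9 from 66946086 to 66949516) encodes a close relative of Rps27 that p53 induces and that can enter the small subunit. It rose from 24.9, 27.6, 28.3, 35.5 and 24.8 CPM in controls to 37.9, 35.0, 56.2, 41.1 and 28.7 CPM in treated marrow. Treated libraries 1, 3 and 4 exceeded all controls, while libraries 2 and 5 lay among them. The log2 fold change was 0.50 (standard error 0.16, 95% interval 0.14 to 0.85, edgeR adjusted p = 0.0331), and the call was lost without control library 1, 2, 3 or 5 or without treated library 3 or 4, with a highest adjusted p of 0.0857 and a log2 fold change of at least 0.34. Rps27 was at 137 ± 23.1 and 136 ± 8.63 CPM (log2 fold change -0.01). Rpl27 (ENSMUSG00000063316, chromosome 11 from 101442298 to 101445529), the only core gene called in marrow, had 152, 164, 154, 182 and 134 CPM in controls and 184, 192, 264, 189.6 and 170.1 CPM after treatment. Its groups overlapped, its log2 fold change was 0.35 (standard error 0.13, 95% interval 0.08 to 0.62, edgeR adjusted p = 0.0490), and the call held without control library 4 or treated library 5 but not without any other; without treated library 3 the value was 0.23. It was also lost with no filter (edgeR adjusted p = 0.0528), with pseudogene counts added (0.0503) and with the replicate number as a block (0.0532).

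The other listed paralogs were not called in marrow. Rpl3l, the muscle counterpart of Rpl3, was measured at 1.04, 1.16, 1.51, 1.08 and 0.877 CPM in controls and 2.71, 0.878, 4.80, 0.356 and 2.35 CPM after oxaliplatin, with a log2 fold change of 0.96 (standard error 0.52, 95% interval -0.17 to 2.10, edgeR adjusted p = 0.183). Treated values scattered above and below the controls, and the summed CPM of 8 skeletal muscle genes, which rose for 7 of them, was 32.0, 13.4, 107, 14.8 and 107 in control and 415, 369, 853, 52.2 and 391 in treated libraries. Myh4 was the most abundant of these genes and none was at 0 in all libraries; treated libraries 3 and 4 had the highest and lowest sums of the treated group and also the highest and lowest Rpl3l, and the part of muscle RNA in Rpl3l was not tested. Without treated library 4 Rpl3l was called higher (log2 fold change 1.24, edgeR adjusted p = 0.0327). Fitted log2 fold changes were 0.31 (adjusted p = 0.0880) for Rpl7l1, 0.20 (adjusted p = 0.294) for Rpl22l1, 0.44 (adjusted p = 0.206) for Rpl36al and 0.16 (adjusted p = 0.588) for Rps27rt. Rpl7l1 was called higher with library size alone (adjusted p = 0.0104), with a Y-linked covariate (0.0377) or without treated library 5 (0.0331), and Rpl22l1 with library size alone (0.0448). Rpl10l, a testis copy of Rpl10, had at most 2 counts in any library of either tissue. The tables list no count for Rps12l1 in either tissue, and Rps23rg1 reached 2 counts at most in marrow.

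None of 9 listed genes that can be mutated in Diamond-Blackfan anemia was called by edgeR in either tissue, beside 33.1% of all genes tested in marrow and 29.4% in kidney. The list does not hold every such gene, and Rpl27, called higher in marrow, is another. Of the 9, 1 in marrow and 0 in kidney had an unadjusted p under 0.05, as did 9487 of 22363 and 7844 of 19293 genes overall. In marrow the fitted log2 fold changes were 0.08 (adjusted p = 0.677) for Rps19, -0.11 (adjusted p = 0.546) for Rps24, -0.20 (adjusted p = 0.333) for Rps26, -0.06 (adjusted p = 0.770) for Rps7 and -0.08 (adjusted p = 0.625) for Rpl35a. Without treated library 3 Rps26 was called lower, at -0.35 (adjusted p = 0.0150), and in kidney Rps19 and Rps24 were called higher with library size alone (0.0401 and 0.0267). Rps19, the gene most often affected, had 213, 242, 227, 282 and 208 CPM in control and 223, 248, 323, 245 and 203 CPM in treated marrow, with a 95% interval of the log2 fold change from -0.20 to 0.36. Rpl5 and Rpl11, which with 5S RNA bind Mdm2, had log2 fold changes of -0.04 (adjusted p = 0.878) and 0.19 (adjusted p = 0.303). Rps10 came closest to the threshold at 0.43 (standard error 0.17, 95% interval 0.07 to 0.78, edgeR adjusted p = 0.0643), with 4.11, 4.89, 4.95, 5.13 and 4.81 CPM in controls and 5.76, 7.87, 7.57, 5.96 and 4.96 CPM after treatment. All treated libraries but 1 exceeded the controls for this gene, whose level is uncertain for the overlap given above. It was called higher by DESeq2 (adjusted p = 0.0209) and by edgeR with RLE size factors (0.0495), with library size alone (0.0142), with a Y-linked covariate (0.0467) or without treated library 5 (0.0227). Rps14, the 5q- syndrome gene, stood at 292 ± 43.4 and 324 ± 47.3 CPM (log2 fold change 0.15, adjusted p = 0.398), and Rps6, the substrate of S6 kinase, at 470.3 ± 54.4 and 471 ± 105 CPM (log2 fold change 0.00, adjusted p = 0.989). The stalk genes Rplp0, Rplp1 and Rplp2 had log2 fold changes of -0.04, 0.19 and -0.04 in marrow and 0.02, 0.09 and -0.02 in kidney, none of them called. Nor were Rpsa (-0.05 and 0.03), Rpl4 (0.09 and -0.03) and Rps2 (0.24 and -0.08), which are among the members with the most counts, or, among ribosomal proteins with other names, Fau (-0.02 and -0.02) and Rack1 (0.05 and -0.07), in either tissue.

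In kidney the members that passed the test all fell, most of them by less than 1.5-fold. Of 89 members tested, 10 were lower and 0 higher, against 29.4% of the 19293 genes tested called in either direction, 15.0% lower and 14.4% higher. The groups did not overlap for 5 members, all lower (Rpl3l, Rpl22l1, Rpl7l1, Rpl3 and Rpl9), against 20.7% of all genes, 11.0% lower and 9.69% higher, and 13 members had an unadjusted p under 0.05 in edgeR, beside 7844 of the 19293 genes. Except for Rps9, the 10 encode large subunit proteins or their paralogs. Of tested core genes, 6 of 45 of the large subunit (13.3%) and 1 of 31 of the small subunit (3.23%) were lower. Both shares are below the 15.0% of all genes, and the subunits were not tested against each other. Among the 10, 2 (Rpl3l and Rpl22l1) fell by more than 1.5-fold, while 11.5% of all genes changed by as much in either direction. The median log2 fold change was -0.04 over members and 0.02 over all genes. Among the 76 core genes tested, 7 were called, beside 44.0% of abundant genes. Their fitted values ran from -0.34 (Rpl10a) to 0.21 (Rps29), and 74 of 76 tested had a 95% interval inside 1.5-fold either way, against 50.0% of all genes and 81.9% of the 5859 abundant ones (log2 CPM averaging 5 or more). The direction depends on the scale: with library size alone, 8 members were higher, 4 (Rpl10a, Rpl22l1, Rpl3l and Rpl7l1) were lower, and the median was 0.09, while that of all genes moved to 0.16 and 4642 genes were called higher and 1573 lower, in place of 2780 and 2899. Relative to all genes the members' median was -0.06 with TMM, -0.07 with library size, -0.12 with no filter on low counts and -0.04 with at least 10 counts in every sample. With 1 library left out it lay between -0.12, without treated library 1, and -0.02, without treated library 4. With each library left out in turn between 6 and 13 members were lower, the largest number without treated library 1 and the smallest without control library 1, 3, 4 or 5 or treated library 2, 4 or 5.

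Rpl3l (ENSMUSG00000002500, chromosome 17 from 24727820 to 24736143) fell in kidney from 2.84, 2.48, 3.28, 3.38 and 3.69 CPM in controls to 1.44, 1.85, 1.62, 0.842 and 1.05 CPM after oxaliplatin. All treated libraries were below all controls, as for 11.0% of the genes tested, and the log2 fold change was -1.20 (standard error 0.22, 95% interval -1.67 to -0.74, edgeR adjusted p = 0.000678). Skeletal muscle genes were near the limit of counting in kidney, where their sum averaged 2.38 CPM in controls and 3.81 CPM in treated libraries, and 0 of the 2 genes with enough counts was called. Its parent Rpl3 (ENSMUSG00000060036, chromosome 15 from 80077791 to 80091868), which lies at the peptidyl transferase centre, fell too, from 319, 300.4, 315, 295 and 292 to 287, 224, 231, 243 and 242 CPM. The Rpl3 groups did not overlap, with treated library 1 nearest the controls, and the log2 fold change was -0.31 (standard error 0.07, 95% interval -0.46 to -0.16, edgeR adjusted p = 0.00373). With library size alone it was -0.18 and not called (adjusted p = 0.0745).

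Rpl22l1 (ENSMUSG00000039221, chromosome 3 from 28805436 to 28807424), the paralog of the RNA-binding protein Rpl22, had 5.23, 8.61, 5.36, 4.95 and 4.41 CPM in controls and 3.73, 3.64, 2.73, 3.26 and 3.90 CPM after treatment. Control library 2 lay well above the other controls, and all treated libraries were below every control (log2 fold change -0.73, standard error 0.18, 95% interval -1.11 to -0.34, edgeR adjusted p = 0.00595). Without that control the value was -0.53 and still called. Rpl22 itself was 73.4 ± 2.7 and 66.9 ± 5.90 CPM (log2 fold change -0.13, adjusted p = 0.149). Rpl7l1 (ENSMUSG00000063888, chromosome 17 from 46773907 to 46782672), a relative of Rpl7, fell from 68.5, 63.6, 71.9, 65.4 and 75.0 to 54.7, 58.4, 54.0, 54.6 and 46.0 CPM with no overlap of the groups. Its log2 fold change was -0.36 (standard error 0.07, 95% interval -0.52 to -0.21, edgeR adjusted p = 0.00126). Rpl10a (ENSMUSG00000037805, chromosome 17 from 28328471 to 28331033), a large subunit protein of the L1 stalk, fell from 173, 147, 185, 178 and 185 to 158, 136, 146, 118 and 128 CPM (log2 fold change -0.34, standard error 0.08, 95% interval -0.52 to -0.16, edgeR adjusted p = 0.00589), with treated library 1 inside the range of the controls. Smaller falls were called for Rpl9 (-0.22), Rps9 (-0.22), Rpl10 (-0.21), Rpl17 (-0.21) and Rpl7 (-0.19), of which Rpl9 alone kept its call with each library left out in turn. Rps27l, higher in marrow, did not pass the test in kidney with TMM and the filter used, where it had 52.5, 47.5, 55.1, 49.7 and 58.8 CPM in controls and 68.0, 70.1, 69.8, 50.6 and 52.8 CPM after treatment. Treated libraries 1 to 3 were above the controls and 4 and 5 among them (log2 fold change 0.24, adjusted p = 0.0724), and without treated library 4 or 5 the gene was called higher with adjusted p = 0.0141 and 0.0231. It was also called higher with library size alone (0.00287), with no filter (0.0344), with at least 10 counts in every library (0.0399) and with a Y-linked covariate (0.0132). Rps4l stood at 15.2 ± 3.68 and 16.3 ± 2.10 CPM in kidney (log2 fold change 0.11, adjusted p = 0.596). Rps14 had -0.22 (adjusted p = 0.0983) and Rps19 0.10 (adjusted p = 0.428) as log2 fold changes, and neither was called, although Rps14 was called lower without treated library 1 (adjusted p = 0.0163) or with a Y-linked covariate (0.0183).

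**Figure D3:**
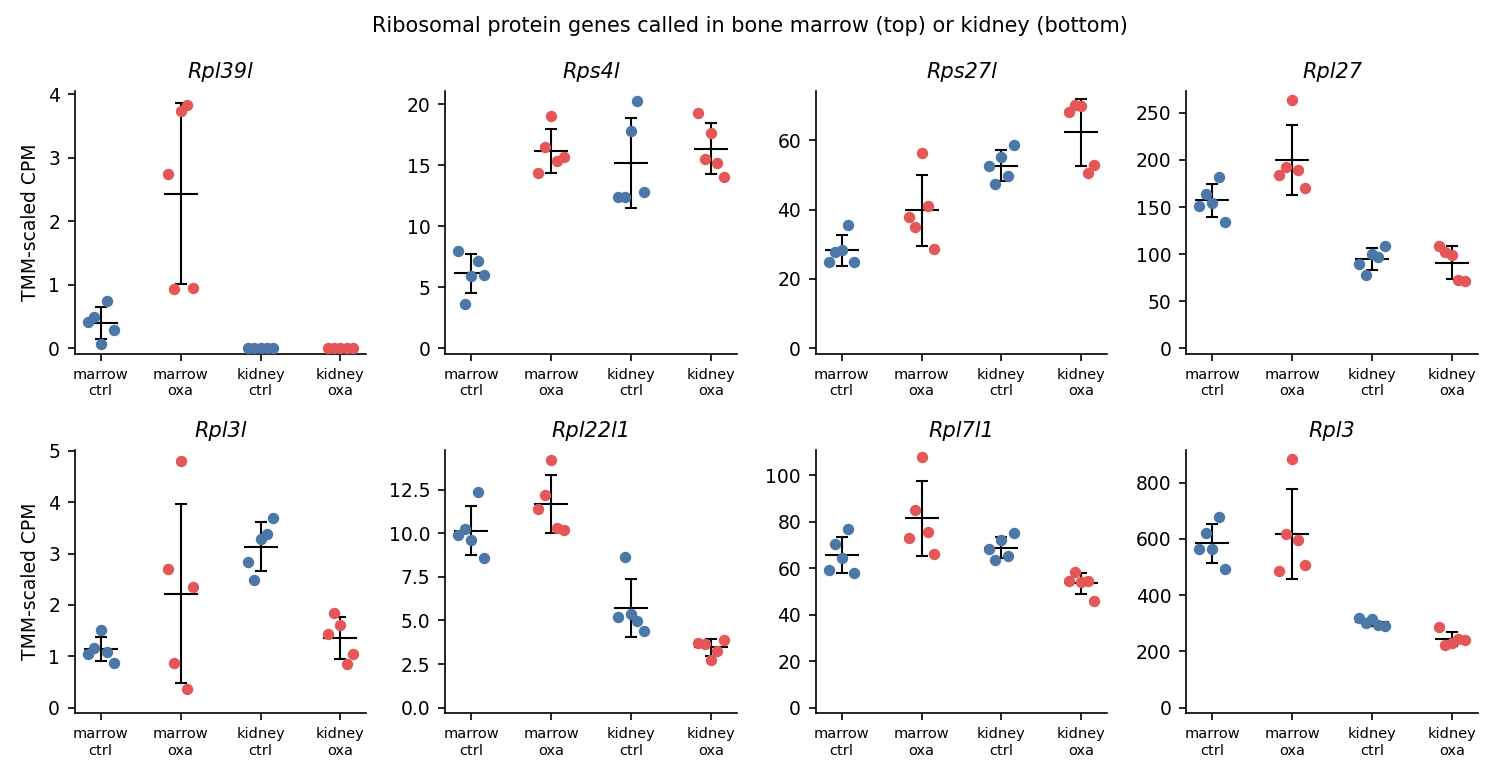
TMM-scaled CPM of 8 ribosomal protein genes in each of 20 libraries, controls blue and oxaliplatin red, with the mean and SD of 5 as black lines; each panel has its own linear axis from 0. The upper genes were called in bone marrow and the lower genes in kidney; Rpl39l is at 0 in all 10 kidney libraries and Rpl3l fell by 1.20 on the log2 scale in kidney.

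Whether the change differed between marrow and kidney was tested in edgeR with an interaction term over the 20 libraries, taken as independent since it is not stated whether marrow and kidney came from the same mice. A positive value means a log2 fold change more positive in marrow than in kidney. Of 91 members tested, 8 were called with a more positive change in marrow and 0 with a more positive change in kidney, against 30.1% of 24321 genes in either direction, 17.0% and 13.1% in these directions. The largest difference was that of Rpl3l, 2.23 (standard error 0.60, edgeR adjusted p = 0.00705), followed by Rps4l with 1.35 (standard error 0.25, edgeR adjusted p = 0.000272), Rpl22l1 with 0.99 (standard error 0.24, edgeR adjusted p = 0.00324) and Rpl7l1 with 0.74 (standard error 0.17, edgeR adjusted p = 0.00187). Rpl10, Rpl9, Rpl10a and Rps9 differed by 0.55, 0.48, 0.48 and 0.39. The first 4 belong to the list of paralogs. The calls of Rpl10a and Rps9 were both lost with at least 10 counts in every sample or with the replicate number as a block. That of Rps9 was also lost with RLE size factors. When 1 library was left out, the call was lost in 15 of 20 fits for Rpl10a, in 14 for Rps9 and in 7 for Rpl9. For Rps27l the difference was 0.32 (standard error 0.21, edgeR adjusted p = 0.276), so a rise particular to marrow was not shown. Without treated marrow library 3, 5 members kept a more positive change in marrow (Rpl10, Rpl22l1, Rpl3l, Rpl7l1 and Rps4l) and Rps12 had a more positive change in kidney. Between 5 and 14 members were called with a more positive change in marrow when single libraries were left out, the most without treated marrow library 1. Rpl39l gives no comparison, since kidney had no counts.

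Many genes that build ribosomes were higher in treated marrow, whereas few changed in kidney. Of 52 ribosome biogenesis genes, 26 were higher and 2 (Ubtf and Taf1c) lower in treated marrow, beside 16.3% and 16.8% of all genes. The share called in either direction was 53.8%, beside 44.9% of abundant marrow genes. The list had a median log2 fold change of 0.40, against -0.04 over all genes. Npm1, which encodes the nucleolar chaperone nucleophosmin, rose from 251 ± 28.6 to 439 ± 177 CPM (log2 fold change 0.81, standard error 0.22, edgeR adjusted p = 0.0121), and Nop16, a nucleolar factor of the large subunit, from 14.3 ± 1.67 to 24.8 ± 8.03 CPM (log2 fold change 0.80, standard error 0.19, edgeR adjusted p = 0.00526). Ubtf and Taf1c, factors of ribosomal RNA transcription by RNA polymerase I, fell by 0.38 and 0.32 on the log2 scale (adjusted p = 0.0262 and 0.0277), and each lost its call in 6 of 10 fits without 1 library, and with RLE factors, library size, a Y-linked covariate, hemoglobin genes left out or DESeq2, where library size gave -0.23 and -0.17. The summed CPM of the 52 genes was 3110.3, 3255, 3156, 3711 and 3076 in control and 3289, 4318, 6317, 4373 and 3634 in treated marrow, so treated libraries 1 and 5 lay within the range of the controls and library 3 was again highest; without it 20 genes were higher and 2 lower. Between 15 and 34 were higher with single libraries left out, the fewest without control library 1. In kidney 0 of the 52 were higher and 7 lower, beside 14.4% and 15.0% of all genes, with a median of -0.09. Nhp2, a protein of the H/ACA particles that modify ribosomal RNA, fell there from 62.5 ± 9.68 to 30.1 ± 6.01 CPM (log2 fold change -1.05, standard error 0.14, edgeR adjusted p = 0.000149), and Nop16 from 25.9 ± 2.74 to 17.8 ± 1.84 CPM (log2 fold change -0.54, standard error 0.09, edgeR adjusted p = 0.000388). The interaction was called for 26 of the 52 genes, all with a more positive change in marrow, as for 17.0% of all genes, including Nhp2 (1.81, adjusted p = 8.15e-06) and Nop16 (1.41, adjusted p = 8.77e-05).

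Mitochondrial ribosomal proteins, which serve a separate ribosome inside mitochondria, differed between the tissues as well. In kidney 46 of 81 tested were lower and 0 higher (median -0.27), beside 15.0% and 14.4% of all genes. The share called there was 56.8%, beside 44.0% of abundant kidney genes called in either direction. In marrow 11 were higher and 0 lower (median 0.24), a share of 13.6% higher beside 16.3% of all marrow genes. In kidney Mrps7 fell from 111 ± 14.0 to 70.1 ± 11.4 CPM (log2 fold change -0.66, standard error 0.11, edgeR adjusted p = 0.000525) and Mrpl18 from 25.5 ± 2.21 to 17.7 ± 1.88 CPM (log2 fold change -0.53, standard error 0.09, edgeR adjusted p = 0.000386). In marrow Mrps6, a small subunit protein, rose from 3.84 ± 0.855 to 18.3 ± 4.60 CPM (log2 fold change 2.25, standard error 0.21, edgeR adjusted p = 4.4e-06) and Mrpl17 from 25.3 ± 3.39 to 42.2 ± 9.09 CPM (log2 fold change 0.74, standard error 0.14, edgeR adjusted p = 0.00146). Without single marrow libraries between 4 and 19 were higher there, the fewest without control library 2, 3 or 5 and the most without treated library 5. Without treated marrow library 3, 6 of these genes were higher and 2 lower in marrow, and with library size alone the number lower in kidney was 16. With library size alone or with a Y-linked covariate, more than 11 were higher in marrow. On the library size scale more of all marrow genes were higher as well, 5372 in place of 3650. Between 28 and 50 were lower in kidney without single libraries, the fewest without control library 3 or treated library 5. The interaction was called for 43 of 82 genes, each with a more positive change in marrow, beside 17.0% of all genes.

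Other genes with TOP messenger RNAs, mostly translation factors, were mostly lower in kidney. There 10 of 15 were lower and 0 higher, beside 15.0% and 14.4% of all genes, with a median log2 fold change of -0.23. The share called was 66.7%, beside 44.0% of abundant kidney genes called in either direction. Nap1l1, a histone chaperone and no translation factor, fell from 86.8 ± 4.50 to 65.3 ± 6.90 CPM (log2 fold change -0.41, standard error 0.07, edgeR adjusted p = 0.000529) and Eif4b, which assists the helicase eIF4A, from 446 ± 50.8 to 346 ± 34.9 CPM (log2 fold change -0.37, standard error 0.09, edgeR adjusted p = 0.00453). In marrow 1 of 15 was called, beside 33.1% of all genes (16.8% lower): Pabpc1, the cytoplasmic poly(A)-binding protein, which fell from 2727 ± 346 to 1267 ± 221 CPM (log2 fold change -1.11, standard error 0.14, edgeR adjusted p = 7.03e-05); its 2 groups did not overlap. With library size alone 3 of the 15 were lower in kidney, and Eif4b was not called (-0.23, adjusted p = 0.0585). Of 6 TOP genes that host small nucleolar RNAs, Gas5 fell in marrow (log2 fold change -0.43, standard error 0.11, edgeR adjusted p = 0.00752) and Snhg12 in kidney (log2 fold change -0.44, standard error 0.13, edgeR adjusted p = 0.0134), and no other was called, 16.7% in each tissue beside 16.8% and 15.0% of all genes lower. Both calls were lost with library size alone (Gas5 -0.27, adjusted p = 0.0792; Snhg12 -0.31, adjusted p = 0.0686).

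Among 16 genes of mTORC1 and of TOP control, 3 were higher and 3 lower in marrow, and 2 higher and 4 lower in kidney. The share called was 37.5% in each tissue, near the 33.1% and 29.4% of all genes. Ddit4 and Deptor, both inhibitors of mTORC1, rose in each tissue. Ddit4 went from 13.7 ± 4.86 to 37.3 ± 23.9 CPM in marrow (log2 fold change 1.44, standard error 0.41, edgeR adjusted p = 0.0196) and from 26.0 ± 6.13 to 66.0 ± 30.1 CPM in kidney (log2 fold change 1.34, standard error 0.31, edgeR adjusted p = 0.0123). Without treated marrow library 1 the adjusted p of Ddit4 was 0.0520, and with no filter on low counts 0.0752. With a covariate of Y-linked expression for the unlabelled sex of the mice, its marrow log2 fold change was 0.82 (adjusted p = 0.103). Deptor rose by 1.21 in marrow (adjusted p = 3.67e-06) and by 0.30 in kidney (adjusted p = 0.00451) on the log2 scale. Mtor, the kinase itself, fell in kidney from 681 ± 37.5 to 363 ± 65.0 CPM (log2 fold change -0.90, standard error 0.10, edgeR adjusted p = 1.46e-05) and by 0.20 on the log2 scale in marrow (adjusted p = 0.0367), where the call held in 2 of 10 fits without 1 library. The marrow call of Mtor was also lost with RLE factors, no filter, the replicate block, a Y-linked covariate or hemoglobin genes left out, and with library size alone the value was -0.05 (adjusted p = 0.599). Rps6kb2, an S6 kinase, fell in both tissues, by 0.36 in marrow and 0.23 in kidney (adjusted p = 0.00462 and 0.0445), the latter called in 2 of 10 fits without 1 library, and neither with library size alone (0.0665 and 0.351). The kidney call was also lost with no filter on low counts (adjusted p = 0.0784), with at least 10 counts in every sample (0.0649) and with the replicate number as a block (0.0761). Tsc1, a negative regulator of mTORC1, fell in marrow by 0.47 (adjusted p = 0.000824).

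**Figure D4:**
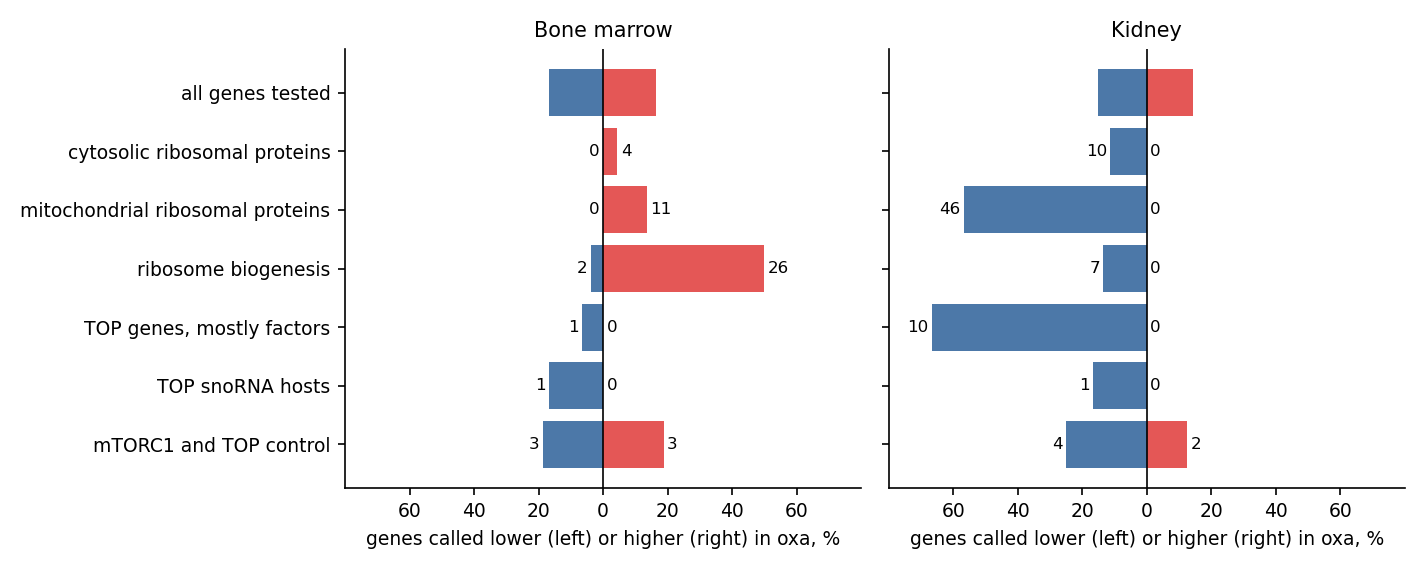
Share (%) of the tested genes of each list called lower (blue, left) or higher (red, right) after oxaliplatin in bone marrow and kidney, with the number of genes at the end of each bar; for all genes tested the shares are 16.8% and 16.3% in marrow and 15.0% and 14.4% in kidney. Ribosome biogenesis genes were called higher in marrow 26 times, and mitochondrial ribosomal proteins lower in kidney 46 times.

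Marker genes of several cell types moved with treatment in marrow beside these results. The summed CPM of erythroid genes went from 43904 ± 8388 to 7265 ± 2453 (SD, n = 5 per group), with 13 of 14 genes lower and Hba-a1 the most abundant, and that of 12 B lymphoid genes from 1499 ± 289.9 to 718 ± 133, with 9 lower and Ighm the most abundant. The sum of cycling-cell genes went from 6179.8 ± 529.9 to 2723 ± 621 CPM, with 9 of 10 lower and Mki67 the most abundant. All 8 adipocyte genes rose, from a sum of 225 ± 43.2 to 2516 ± 1115 CPM with Lpl the most abundant, as did all 7 megakaryocyte genes (2072 ± 345 to 3708 ± 478 CPM, Itgb3 the most abundant) and 6 of 9 macrophage genes (1438 ± 169 to 2494 ± 699.9 CPM, Vcam1 the most abundant). Of 13 neutrophil genes 1 was higher and 0 lower (24326 ± 1738 to 21360.0 ± 8611 CPM, Ngp the most abundant). None of these lists had a gene at 0 in all marrow libraries. Osteoblast genes were lower for 2 of 7 and T lymphoid genes for 2 of 8, and endothelial genes were higher for 4 of 6. Of all marrow genes tested 33.1% were called, 16.3% higher and 16.8% lower. The T lymphoid median log2 fold change was 0.26, with 5 of 8 values above 0 and Cd4 the most abundant. The 93 ribosomal protein genes, at 2.43% and 2.77% of counts, showed no change as large as those of the erythroid and adipocyte sums. The part of cell makeup in any ribosomal protein value was not tested. Of all kidney genes tested, 14.4% were higher and 15.0% lower. In kidney 7 of 9 tested cycling genes rose (sum 67.3 ± 3.09 to 93.9 ± 7.37 CPM, Pcna the most abundant), 5 of 8 tested macrophage genes fell and 1 rose (sum 127 ± 12.0 to 75.2 ± 5.98 CPM, Csf1r the most abundant), and 2 of 7 proximal tubule genes rose and 2 fell (sum 17220.1 ± 1127 to 15296 ± 1431 CPM, Slc34a1 the most abundant). All 4 podocyte genes, 4 of 6 endothelial genes, 2 of 4 collecting duct genes, 2 of 5 tested genes of injured tubules and 1 of 4 genes of the loop and distal tubule were higher in kidney and none of these lower. Of 7 tested adipocyte genes 5 were higher and 1, Lpl, lower in kidney, with a median log2 fold change of 1.55, while their sum went from 414 ± 94.8 to 303 ± 62.3 CPM with Lpl the most abundant. All 3 tested genes of the osteoblast list were higher (sum 441 ± 17.0 to 708 ± 47.4 CPM, Alpl the most abundant). Of blood cell lists in kidney, 1 of 10 tested erythroid, 2 of 4 megakaryocyte and 1 of 1 neutrophil genes were higher and none lower. Among B lymphoid genes 1 of 5 was higher and 1 lower, and 1 of 6 T lymphoid genes was lower. The shares called of the erythroid (10%) and T lymphoid (16.7%) lists were near or below those of all kidney genes. The neutrophil gene was Lcn2 (log2 fold change 2.06), which is also on the list of injured tubules. Rag1 of the B lymphoid and Ctsg of the neutrophil list were at 0 in all kidney libraries. The part of these lists in the kidney values was not tested either.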

How the data were processed

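The deposited tables hold the authors' raw read counts per gene for 20 libraries, 1 table per tissue, with 5 control and 5 oxaliplatin libraries each. According to the study's methods, reads were aligned with STAR 2.5.1a to Ensembl release 101 and counted where they fitted 1 gene, while the sample records name STAR 2.7.9a, featureCounts 2.0.3 and Salmon 1.5.2; the library chemistry is also given in different ways. RNA with an integrity number above 7 was used. Repeated identical lines (287) and 1 line with a missing value were dropped from each table, leaving 55486 genes, and no sample column was left unmapped. Total counts per library set the precision given in the report, floors of 3 counts cover counting error only, and intervals of fold changes include the spread between replicates.

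Counts were tested in edgeR 4.0.16 (R 4.3.3, limma 3.58.1) within each tissue, with genes kept by filterByExpr at a minimum count of 10, TMM scaling, a robust quasi-likelihood fit, two-sided tests and Benjamini-Hochberg adjustment over all genes tested; the 5 libraries of a group are labelled biological replicates. The interaction was fitted over all 20 libraries. CPM per kb used the length of a transcript of GENCODE M21 on GRCm38, which also gave positions. The tests were tried on simulated counts drawn independently for each gene, without the shared shifts between libraries seen in core genes. That trial does not bear on such shifts. Alternatives were DESeq2 1.42.0, other size factors, other filters, a Y-linked covariate for sex, removal of hemoglobin genes, a replicate block and each library left out.

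The members and gene lists were chosen with earlier results of these data known. Named were, per tissue, the 5 members with the largest called rise and the 5 with the largest called fall at a mean log2 CPM of at least 1, the 3 most abundant members, listed paralogs, Diamond-Blackfan, stalk and differently named ribosomal protein genes, Rps14 and Rps6, and from each pathway list the 2 largest called changes in each direction. Other members, among them parents of paralogs, the members at the ends of a range and the smaller called falls in kidney, were named after their values were seen. Protein sequences were not used here, and the values of a few listed genes are not reported here.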

Additional observations from a re-analysis of the deposited data

Results flagged for a closer look

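In 14 of 202 groups of 5 libraries examined among the named genes, 1 library stood apart by Dixon's criterion, and chance gives about 1 in 20. Among ribosomal protein genes, treated marrow library 3 was high for Rpl27 (264 CPM), Rps26 (428 CPM) and Rps7 (429 CPM), and 1 control marrow library was low for Rpl36al (0.914 CPM). In kidney, 1 control library was high for Rpl22l1 (8.61 CPM), 1 each was low for Rps7 (132 CPM) and for Fau (212 CPM), and 1 treated library was high for Rps6 (207 CPM). Among the other genes, single marrow libraries stood apart for Nop16 (17.2 CPM, a high control), Tsc1 (69.7 CPM, a high control) and Taf1c (22.1 CPM, treated and high), and single kidney libraries for Mrpl18 (21.7 CPM, a low control), Nap1l1 (77.1 CPM, treated and high) and Taf1c (7.95 CPM, treated and low).

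Many named genes were chosen for the largest called changes in these data. The number with a called interaction is therefore not comparable with the 30.1% of all 24321 genes. For 17 named genes the response differed between the tissues by the interaction test of edgeR, given as the log2 fold change in marrow minus that in kidney. Of the ribosomal protein genes these were Rpl3l (2.23), Rps4l (1.35), Rpl22l1 (0.99), Rpl7l1 (0.74) and Rpl10a (0.48, adjusted p = 0.0475). The call of Rpl10a was lost in 15 of 20 fits that left out 1 library, with at least 10 counts in every sample and with the replicate number as a block. Of the biogenesis and mitochondrial genes they were Nhp2 (1.81), Nop16 (1.41), Npm1 (0.98), Mrps6 (2.41), Mrpl17 (1.09), Mrps7 (1.02) and Mrpl18 (0.66). Nap1l1 (0.76), Deptor (0.97) and Mtor (0.76) also had a more positive change in marrow, whereas Pabpc1 (-0.84) and Tsc1 (-0.45) had a more positive change in kidney.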

How the results depend on the processing

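Of 53 called results for named genes, 15 lost the call under at least 1 alternative and 0 reversed. Of 95 that were not called 19 gained a call and 54 changed sign at least once; the cause was not tested. The alternatives for gene lists were chosen after seeing the data. With library size alone, the members higher numbered 11 in marrow and 8 in kidney, those lower in kidney 4, and the kidney median was 0.092. On that scale, of the gene lists 3 TOP genes, mostly translation factors, and 38 mitochondrial ribosomal proteins were higher in marrow, and in kidney 4 biogenesis genes were higher and 4 lower, with 3 TOP genes and 16 mitochondrial ribosomal proteins lower. Members higher in kidney numbered 1 with no filter, 1 with at least 10 counts and 2 with the Y-linked covariate. The share difference between treated and control libraries was 0.0697 points in marrow and -0.0487 in kidney on TMM-scaled library sizes, against 0.344 and 0.0901. The biogenesis genes lower in marrow numbered 0 with RLE factors, library size, the Y-linked covariate, hemoglobin left out or DESeq2, and 1 with no filter. With the covariate, 21 mitochondrial ribosomal proteins were higher and 1 lower in marrow.

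With each library left out, members higher and lower in marrow ranged from 2 to 6 and 0 to 3, in kidney from 0 to 1 and 6 to 13, and in the interaction from 5 to 14 and 0 to 1. The members' median ranged from -0.08 to 0.15 in marrow and -0.09 to 0.01 in kidney, and the share difference from 0.114 to 0.454 and 0.0267 to 0.126 points. In marrow the lists ranged from 15 to 34 higher and 0 to 2 lower for biogenesis, 1 to 3 lower for TOP genes, and 4 to 19 higher and 0 to 2 lower for mitochondrial ribosomal proteins. In kidney they ranged from 0 to 1 higher and 4 to 10 lower, 7 to 10 lower and 28 to 50 lower in the same order. With the replicate number as a block, 3 members were higher in marrow, 7 lower in kidney and 6 called in the interaction, where Rpl10a and Rps9 lost their calls. Deviations of control and treated samples of one number had correlations from -0.0871 to 0.331 in marrow and -0.182 to 0.0907 in kidney. The own number was highest in 2 of 5 in each tissue. With 5 pairs per tissue, these values cannot show whether samples of one number share more than the number. Depth limits Rpl39l, Rpl3l and Rpl24, which had few counts.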
